A study of Mus musculus with 204 samples.

Results

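Gene expression was compared between the cerebral cortex (10 libraries) and the cerebellum (10 libraries) of mice, 20 of the 204 RNA sequencing libraries of the series. Members were taken by title, and each region held 5 libraries of diet-induced obese mice (DIO) and 5 of lean mice. All mice were male C57BL/6J, a common inbred laboratory strain, and the labels name no engineered allele. DIO mice ate a diet with 60% fat for 10 weeks and lean mice ate chow with 13.1% fat. The labels are inconsistent on age: one passage starts the fat diet at 4 weeks of age, and another has the mice received at 6 to 12 weeks. Nothing in the labels ties a cortex library to a cerebellum library of the same mouse, so regions were compared without pairing and with diet as a block. The series names 5 mice per diet, as many as the libraries of each region and diet, so both regions may come from the same 10 mice. The fits take libraries as independent, and their p-values do not account for shared mice.

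The cerebral cortex is a layered sheet in which glutamatergic projection neurons, born in the embryonic forebrain, are the main neurons, joined by inhibitory interneurons that migrate in from the ventral forebrain. The cerebellum arises from the hindbrain and holds small, densely packed granule cells, which are glutamatergic, and large inhibitory Purkinje cells, the sole output of the cerebellar cortex. Bergmann glia, a radial astrocyte, surround the Purkinje cells.

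Library totals ran from 8.61 to 28.1 M reads (median 17.2), and the deposited table held between 21.1% and 22.7% of them, since it covers chromosomes 1, 2, 3 and X and the first 40.3 Mb of chromosome 4. Values are CPM, that is reads scaled to a common library total, and give a share of a library and not a number of molecules. In such bulk tissue, fewer cells of a type and less RNA per cell cannot be told apart. The labelled regions were checked against marker lists. Summed over 12 markers of cortical projection neurons, cortex libraries held 1160 to 1695 CPM. Summed over 8 Purkinje cell markers, they held 371 to 520.0 CPM, against 1723 to 5707 in the cerebellum. Every library thus carried the markers of its own label at the higher level.

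Among the cerebellum libraries, 4 stood apart: DIO 1, DIO 3, lean 3 and lean 5. Tbr1, a T-box transcription factor of glutamatergic forebrain neurons, was at 10.9 to 29.3 CPM in these 4 and at 0.623 to 1.61 CPM in the other 6 cerebellum libraries. Their 12 cortical projection neuron markers summed to 371 to 516 CPM, against 201 to 235 in the other 6. Granule cell markers (8 genes) moved the other way, with sums of 225 to 396 CPM in the 4 and 565 to 805 in the 6. Of all 10 cerebellum libraries, DIO 1 had the lowest sum of Purkinje markers, and the other 3 of the 4 reached at most 3562 CPM, below the 3901 to 5707 of the 6. Regulators of midbrain and hindbrain (6 genes) summed to 7.24 to 25.7 CPM in the 4, 3.02 to 15.9 in the 6 and 0.0875 to 2.25 in cortex, where Hoxd3 and Hoxd4 were at 0 in every library. Whether these 4 libraries hold other tissue, and any part of that in the results, was not tested, and differences are given with all 20 libraries and, where named, without the 4.

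**Figure D1:**
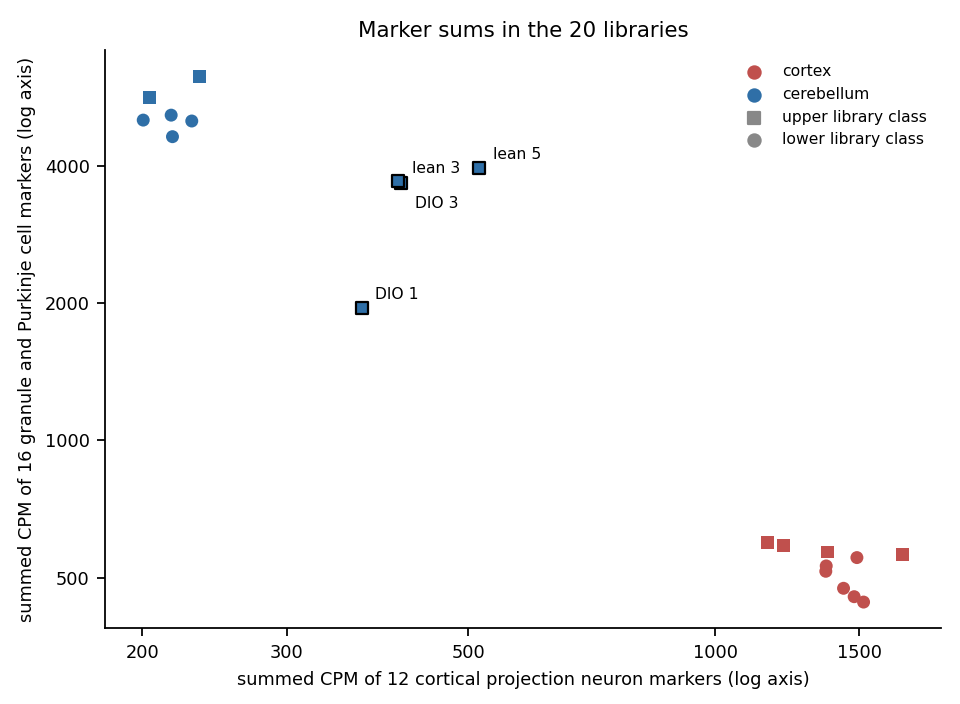
Summed CPM of 12 cortical projection neuron markers (x axis, log scale) against the summed CPM of 16 granule and Purkinje cell markers (y axis, log scale) in each of the 20 libraries. Circles and squares are the lower and upper library class, and the 4 outlined cerebellum libraries sit to the right of and below the other 6, with cortex far to the lower right.

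A second split crossed both regions. An index of 10 genes, which subtracts the average log2 level of S100a1, Kantr, Dynlrb1, Ubap2l and Ncoa6 from that of Rpl39, Cops9, Rpl22l1, Atp5e and Ndufc1, placed the libraries in 2 classes. An upper class, from -0.66 to -0.24, held 4 of 10 cortex and 6 of 10 cerebellum libraries, and a lower class, from -2.76 to -2.31, held the rest. All 4 cerebellum libraries with Tbr1 were in the upper class. With class as a term in the fit, 691 genes were higher in cortex and 1164 in cerebellum. Within the lower class, which holds none of the 4, the counts were 709 and 1160, and within the upper class 477 and 823.

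Of 2397 genes that averaged 10 CPM or more over the 20 libraries, 1696 differed between the regions (70.8% of those tested; limma's moderated test on log2(CPM + 1), Benjamini-Hochberg adjusted p under 0.05). In the cortex 595 were higher (24.8%) and in the cerebellum 1101 (45.9%). Most differences were small: 901 of the 1696 were under 0.5 on the log2 scale. A log2 difference of at least 1 was met by 168 genes higher in cortex (7.01%) and 136 higher in cerebellum (5.67%), and one of at least 2 by 64 and 42. For 278 genes every cortex library lay above every cerebellum library (11.6%), and for 428 every cerebellum library lay above (17.9%). The filter let in 175 genes whose lower region had a mean under 10 CPM (68 higher in cortex and 107 in cerebellum), and these had to differ to pass it. Tested genes and list members below with a mean under 10 CPM in 1 region are among them.

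The balance of differences between the regions rested on the scale. In CPM the median log2 difference of all tested genes, cortex minus cerebellum, was -0.14, and 35.1% of the genes that passed were higher in cortex. After rescaling by median-of-ratios factors the numbers were 793 higher in cortex and 827 in cerebellum, a cortex share of 49.0%. The edgeR quasi-likelihood test on the recovered reads gave 748 and 882, and DESeq2 gave 794 and 845. Counts at a log2 difference of at least 1 moved as well, from 168 in cortex and 136 in cerebellum. They were 210 and 109 after rescaling, 198 and 123 in edgeR and 204 and 118 in DESeq2. Directions below are those in CPM. Without the 4 cerebellum libraries with Tbr1, 686 genes were higher in cortex and 1034 in cerebellum, with 220 and 157 at a log2 difference of at least 1. Of the 1696, 1545 passed again in the same direction and 0 passed in the opposite one.

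**Figure D2:**
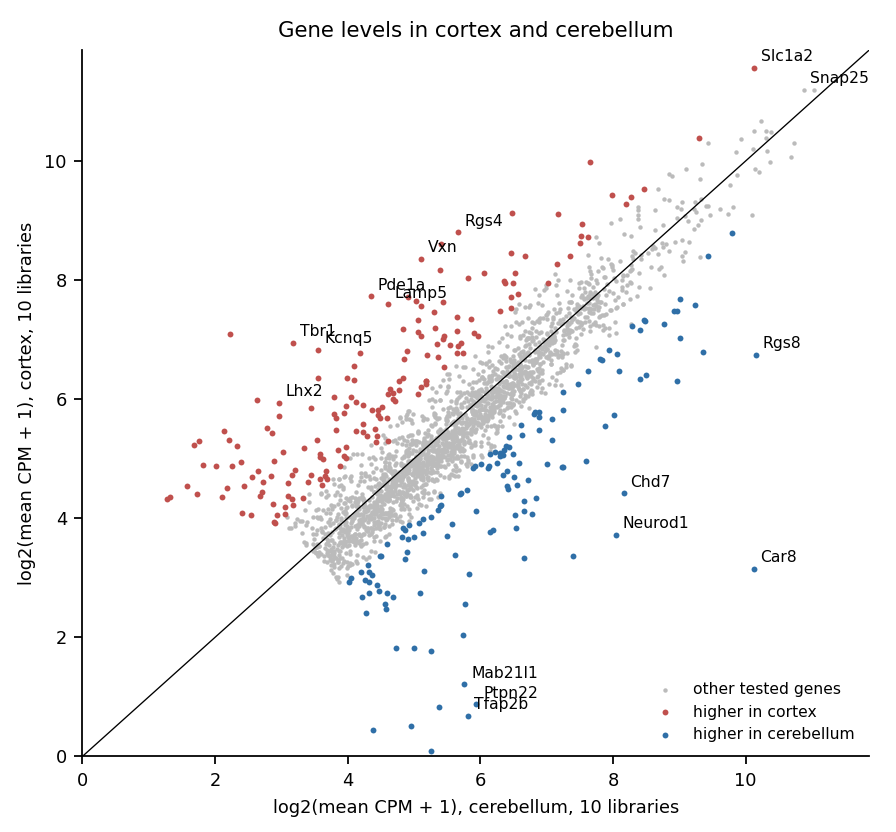
Each point is 1 of 2397 tested genes, with log2(mean CPM + 1) in the cerebellum on the x axis and in the cortex on the y axis (10 libraries each), and the line marks equal levels. Red and blue points are the 168 and 136 genes that passed with a log2 difference of at least 1, and Car8 lies farthest from the line among the labelled genes.

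Among the genes higher in cortex with the largest differences, the 10 described had ratios of the mean CPM of 6.96 to 15.2 over the cerebellum. These 10, and the 12 in the other direction below, were chosen among genes whose regions did not overlap. Pde1a, a calcium- and calmodulin-dependent phosphodiesterase of cyclic nucleotides, ran from 177.5 to 254 CPM in cortex (median 209) and from 1.97 to 59.8 in cerebellum (median 5.22). The 4 cerebellum libraries with Tbr1 held 26.8 to 59.8 CPM of Pde1a and the other 6 no more than 5.66. Its log2 difference was 4.20 ± 0.50 (SE, limma adjusted p = 2.26e-07) with all libraries and 5.45 without the 4.

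Potassium channel subunit Kcnq5, which carries a slow current that limits repetitive firing, was at 87.9 to 134.7 CPM in cortex (median 112.5) and 2.37 to 25.7 in cerebellum (median 5.85). Cortex was higher by 3.70 ± 0.36 (adjusted p = 1.55e-08). Rgs4, which shortens signalling through Gq and Gi proteins, ran from 372 to 600.3 CPM against 15.9 to 109, a difference of 3.52 ± 0.34 (adjusted p = 1.26e-08). Lrrc7, a scaffold of the postsynaptic density also called densin, ran from 64.1 to 93.1 CPM against 2.77 to 27.5, a difference of 3.18 ± 0.34. Vxn, Stum and Ngef, whose cortex medians were 317.5, 383 and 265 CPM, had differences of 4.04 ± 0.48, 3.49 ± 0.30 and 3.29 ± 0.40. In each of these 6, as in Pde1a, the highest cerebellum values were those of the 4 libraries that held Tbr1.

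In the other direction 12 genes are described, with ratios of the mean CPM of 7.64 to 141 over the cortex. Car8, a carbonic anhydrase relative without enzyme activity that binds the inositol trisphosphate receptor, had the largest difference of the named genes. It was at 6.48 to 10.3 CPM in cortex (median 7.50) and at 369 to 1690.0 CPM in cerebellum (median 1157). Even the lowest cerebellum library, DIO 1, stood far above the cortex; the next lowest held 886 CPM. Cortex minus cerebellum was -6.89 ± 0.19 (adjusted p = 1.21e-16), with a ratio of means of 141. Rgs8, a relative of Rgs4 known from Purkinje cells, went the opposite way to it: 85.2 to 125.2 CPM in cortex (median 102.5) and 474 to 1691 in cerebellum (median 1158), a difference of -3.36 ± 0.16 (adjusted p = 2.15e-13).

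Ptpn22, a tyrosine phosphatase studied mostly in lymphocytes, was at 0.359 to 1.33 CPM in cortex (median 0.805) and 16.8 to 83.8 in cerebellum (median 64.8). Its log2 difference was -4.97 ± 0.22 (adjusted p = 1.07e-13). Neb, which encodes the giant muscle thin filament protein nebulin, was at 2.30 to 3.74 CPM in cortex and 14.7 to 81.2 in cerebellum (-3.57 ± 0.22). Chd7, a chromatin remodeller active in granule cells, ran from 15.3 to 24.2 CPM against 117 to 375 (-3.68 ± 0.17). Fam107b, Stk17b, a death-associated kinase, and Fzd7, a Wnt receptor, differed by -3.95 ± 0.20, -3.16 ± 0.19 and -2.72 ± 0.15. No overlap was a condition of the choice of these genes, and in all of them cerebellum DIO 1 was the lowest cerebellum library. Ptpn22, Neb, Fam107b, Stk17b and Fzd7 had cortex means under 10 CPM, so they passed the filter only through the cerebellum. Without the 4 libraries with Tbr1 each of the 22 genes differed by more. For Tbr1, which set the 4, this was fixed in advance. In all 10 genes higher in cortex the 4 held the highest cerebellum values, so leaving them out had to widen the difference. In the 12 higher in cerebellum, the 4 include DIO 1, the lowest cerebellum library of each. The wider differences are thus no separate evidence.

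**Figure D3:**
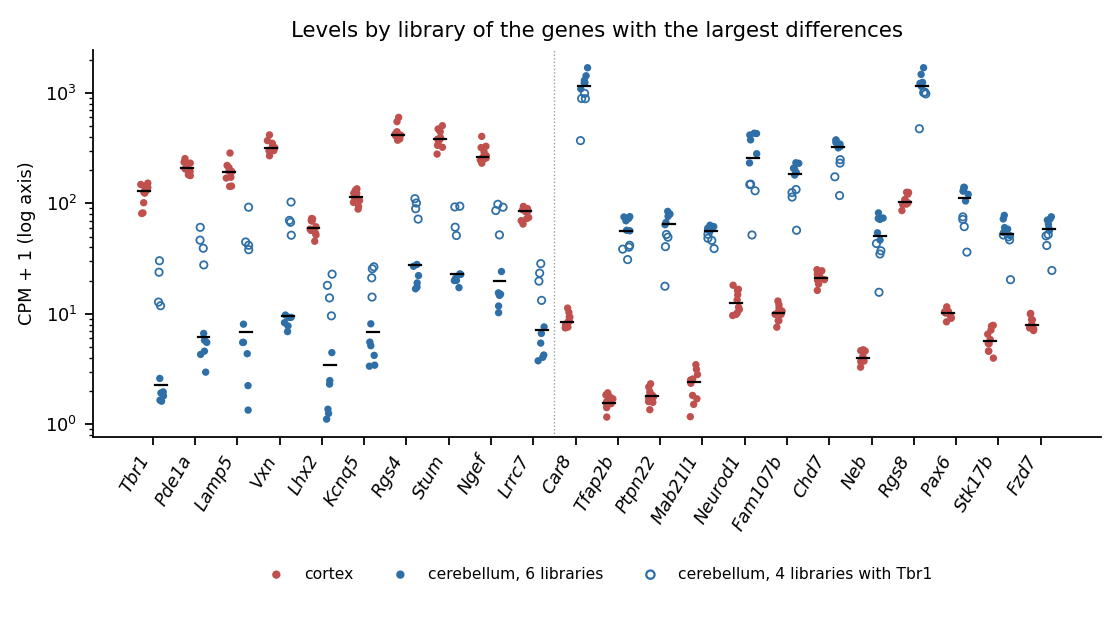
CPM + 1 on a log axis for 10 genes among the largest differences toward cortex and 12 toward cerebellum, one point a library, with a black bar at the median of each region. Cortex is red and cerebellum blue, and the open points are the 4 cerebellum libraries with Tbr1. They lie nearest to cortex in the genes on the left and mostly so in those on the right. The genes were chosen among those whose regions did not overlap.

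Transcription factors separated the regions in both directions. Counts of this list and of the marker lists below stand beside 24.8% of all tested genes higher in cortex and 45.9% in cerebellum. Of 35 listed neuronal factors 24 were tested: 13 were higher in cortex, 7 in cerebellum and 4 did not pass, with a median log2 difference of 0.29 beside -0.14 for all tested genes. Tbr1 was at 80.1 to 152 CPM in cortex (median 128) and at 0.623 to 29.3 in cerebellum (median 1.29). No overlap was a condition of its choice, and it differed by 4.68 ± 0.52 (limma adjusted p = 9.10e-08). Without the 4 libraries the difference was 5.98. These libraries were set by Tbr1 itself (over 5 CPM), so its difference had to rise without them. The LIM factor Lhx2, which specifies cortical identity in the embryo, was at 44.4 to 71.9 CPM against 0.116 to 21.9 (3.78 ± 0.51). Tbr1 and Lhx2 had cerebellum means under 10 CPM, so they passed the filter only through the cortex.

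On the cerebellar side, Tfap2b, an AP-2 factor of the cerebellar inhibitory lineage, had almost no reads in cortex: 0.166 to 0.932 CPM in cortex (median 0.575) and 30.0 to 75.0 in cerebellum (median 55.9). The difference was -5.07 ± 0.16 (limma adjusted p = 9.91e-16). Tfap2b passed the filter only through the cerebellum. Neurod1, a basic helix-loop-helix factor of granule cells, was at 8.68 to 17.2 CPM in cortex (median 11.5) and 50.8 to 431 in cerebellum (median 256), a difference of -4.11 ± 0.31. Cerebellum DIO 1 was lowest and the 4 libraries with Tbr1 reached at most 149 CPM, against at least 232 in the other 6. Pax6, a paired-box factor of granule cells and of cortical progenitors, differed by -3.22 ± 0.19, and Ebf4 and Sp3 did not pass (0.13 ± 0.13 and -0.11 ± 0.10); without the 4 libraries they did (0.32 and -0.33). Below the filter, Barhl1, a homeobox factor of granule cells, was at 0 to 0.359 CPM in cortex and 12.7 to 22.1 in cerebellum, and Nhlh2 at 0.222 to 1.58 and 9.26 to 18.4.

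The 250 bases before the start of the 2 factors with the largest difference in each direction, among those with an entry, are printed because these factors mark the 2 regions most sharply in the list. Sequences are from RefSeq on GRCm38.p6, 5′ to 3′ on the gene's strand, with capitals marking the letters CANNTG, the E-box core that Neurod1 and its relatives bind.
Tbr1 (chr2:61804203-61804452, plus strand): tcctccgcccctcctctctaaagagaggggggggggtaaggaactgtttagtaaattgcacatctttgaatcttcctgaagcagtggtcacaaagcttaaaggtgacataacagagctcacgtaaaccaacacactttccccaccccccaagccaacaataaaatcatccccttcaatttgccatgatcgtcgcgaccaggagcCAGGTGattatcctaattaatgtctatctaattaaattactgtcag
Lhx2 (chr2:38339031-38339280, plus strand): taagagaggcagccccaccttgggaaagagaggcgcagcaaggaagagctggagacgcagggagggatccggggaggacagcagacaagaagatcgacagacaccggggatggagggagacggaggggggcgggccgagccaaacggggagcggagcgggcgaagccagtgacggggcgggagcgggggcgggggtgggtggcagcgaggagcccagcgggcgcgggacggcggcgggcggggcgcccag
Tfap2b (chr1:19211804-19212053, plus strand): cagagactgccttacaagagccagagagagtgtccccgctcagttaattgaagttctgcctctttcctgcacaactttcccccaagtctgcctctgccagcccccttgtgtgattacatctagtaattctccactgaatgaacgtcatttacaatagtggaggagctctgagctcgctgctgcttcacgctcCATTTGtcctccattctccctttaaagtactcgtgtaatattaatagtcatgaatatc
Neurod1 (chr2:79456637-79456886, minus strand): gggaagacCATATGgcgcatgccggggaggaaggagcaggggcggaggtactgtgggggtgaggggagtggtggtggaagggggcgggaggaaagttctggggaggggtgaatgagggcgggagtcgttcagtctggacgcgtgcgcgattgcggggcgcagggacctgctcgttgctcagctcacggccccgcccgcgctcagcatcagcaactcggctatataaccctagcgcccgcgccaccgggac
Tbr1, Tfap2b and Neurod1 hold 1 match each and Lhx2 none; CANNTG reads the same on both strands and is in 66.2% of all 32851 promoter windows of this length. CAGATG, the form favoured by Neurod1, and AGGTGTGA, a T-box binding sequence, were in none of the 4 on either strand, and in 14.4% and 1.12% of all windows (CAGATG is itself a CANNTG). Of the other motifs searched on both strands, CAGCTG, also a CANNTG, TGACGTCA, the cAMP response element, and TATAAA were in none of the 4 either, and in 13%, 1.55% and 12.4% of all windows. CANNTG was searched last, after those 5 had given no match. The Tbr1 and Tfap2b windows have 45.2% and 46.4% G and C, and Lhx2 and Neurod1 72.8% and 67.6%. Only 127 of the 168 genes higher in cortex with a log2 difference of at least 1 had an entry. CANNTG was in 61.1% of their windows. It was in 59.9% of those of genes higher in cerebellum by at least 1, and in 57.5% for other tested genes. For CAGCTG these shares were 18.2%, 9.26% and 11.4%, and for CAGATG 10.6%, 11.7% and 9.72%. TATAAA was in 10.6% of the cortex windows and 5.56% of the cerebellum windows. No difference between these sets of promoters was tested.

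Markers of cortical projection neurons were all tested, and 11 of 12 were higher in cortex (median log2 difference 2.72), beside 24.8% of all tested genes. In 10 of them every cortex library lay above every cerebellum library, beside 11.6% of all tested genes. Lamp5, a membrane protein of superficial layers and of some interneurons, was at 142 to 285 CPM in cortex (median 193) and at 0.348 to 91.5 in cerebellum (median 5.80), a difference of 4.13 ± 0.62, or 5.62 without the 4 libraries. Bhlhe22, a helix-loop-helix factor of layers and areas of the cortex, was the exception with 31.4 to 52.8 CPM in cortex and 23.2 to 67.2 in cerebellum (-0.22 ± 0.16, adjusted p = 0.213). Without the 4 libraries it was higher in cerebellum (-0.53, adjusted p = 8.6e-05).

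Genes of inhibitory neurons were found on both sides. The enzyme gene Gad1, which makes GABA, was at 273 to 428 CPM in cortex and 485 to 692 in cerebellum (-0.62 ± 0.08, adjusted p = 5.64e-07). Slc32a1, the vesicular GABA transporter, was higher in cerebellum as well (-0.70 ± 0.07), with no overlap of the regions. Gad2, the other GABA enzyme, did not pass (0.11 ± 0.11, adjusted p = 0.364). Of 5 tested markers of cortical interneurons (8 listed), 4 were higher in cortex and 1 in cerebellum. Dlx1, a homeobox factor, was at 16.2 to 21.7 CPM in cortex (median 19.8) and 0 to 5.59 in cerebellum (median 0.413), without overlap. It differed by 3.37 ± 0.31 and Lhx6 by 3.26 ± 0.30, both factors of ventral forebrain interneurons. Both had cerebellum means under 10 CPM, so they passed the filter only through the cortex. Prox1, the member that was higher in cerebellum, differed by -0.63 ± 0.18 with overlapping regions.

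Most cerebellar neuron markers were higher in cerebellum. All 5 tested granule cell markers (8 listed) were higher in cerebellum, with a median of -3.22. So were all 8 Purkinje cell markers, with a median of -2.59. In none of the 13 did the regions overlap. Of all tested genes 45.9% were higher in cerebellum, and 17.9% had every cerebellum library above. Mab21l1, Pax6, Car8, Casq2 and Gpr63 had cortex means under 10 CPM. They passed the filter only through the cerebellum, so they had to differ to be tested. Mab21l1, a developmental regulator, was at 0.175 to 2.47 CPM in cortex (median 1.44) and 38.0 to 62.5 in cerebellum (median 55.4), a difference of -4.61 ± 0.15. The smallest granule cell difference was in Fstl5, a secreted follistatin-like protein (-0.78 ± 0.11). Among Purkinje genes, Casq2, a calcium-storing protein of the reticulum, was at 1.75 to 3.30 CPM in cortex and 16.5 to 51.4 in cerebellum, a difference of -3.45 ± 0.15. Calb1, the calcium buffer calbindin, was at 90.1 to 132 CPM in cortex (median 111) and 262 to 951 in cerebellum (median 659), a difference of -2.51 ± 0.16. Of the granule cell markers below the filter, Barhl1 was higher in every cerebellum library than in any of cortex. Nhlh1, a helix-loop-helix factor, was very low in both, at 0.249 to 1.18 CPM in cortex and 0 to 0.289 in cerebellum, with the higher median in cortex. Of the 3 cerebellar interneuron markers 1, Tfap2b, was higher in cerebellum. Lypd6, a membrane-anchored protein, did not pass, at 24.3 to 35.3 CPM in cortex (median 27.5) and 25.3 to 30.7 in cerebellum (median 28.4), and Ptf1a, a factor of the inhibitory lineage, was below the filter, at 0 in every cortex library and at most 0.129 CPM in cerebellum.

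Glial and vascular lists had smaller median differences than the lists of projection neurons, granule cells and Purkinje cells, and directions varied by list. Their counts stand beside 24.8% of all tested genes higher in cortex and 45.9% in cerebellum. Of 10 astrocyte and Bergmann glia markers, 4 were higher in cortex, 5 in cerebellum and 1, Sox2, did not pass (0.11 ± 0.07, though 0.24 and higher in cortex after rescaling). Slc1a2, the main glutamate transporter of forebrain astrocytes, was at 2641 to 3445 CPM in cortex (median 3008) and 837 to 1717 in cerebellum (median 961). The difference was 1.48 ± 0.11 (adjusted p = 4.27e-10), without overlap. Cst3, a secreted protease inhibitor, was higher in cortex (0.92 ± 0.16) and so was Mertk, an engulfment receptor (0.82 ± 0.09). In contrast Vim, the intermediate filament vimentin, was at 24.0 to 36.0 CPM in cortex (median 26.2) and 89.2 to 222 in cerebellum (median 146.5). It differed by -2.37 ± 0.12, and Gpr37l1, a receptor of Bergmann glia, was at 121 to 199 CPM in cortex and 345 to 612 in cerebellum.

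Microglia markers were at low levels, and 3 of 10 reached the filter, all higher in cortex, beside 24.8% of all tested genes. P2ry12, a purinergic receptor of resting microglia, was at 27.3 to 41.2 CPM in cortex (median 32.9) and 6.15 to 15.9 in cerebellum (median 11.2), a difference of 1.53 ± 0.13. Olfml3 differed by 0.83 ± 0.09 and Ctss, the lysosomal protease cathepsin S, by 0.61 ± 0.10. The 10 genes summed to 147 to 183 CPM in cortex and 68.7 to 126 in cerebellum.

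Of 12 tested myelin and oligodendrocyte markers (14 listed), 1 was higher in cortex, 4 in cerebellum and 7 did not pass. This count and the next 2 stand beside 24.8% of all tested genes higher in cortex and 45.9% in cerebellum. Mal, a myelin membrane protein, was higher in cortex (0.49 ± 0.14), and Hapln2, a link protein of nodes, in cerebellum (-0.75 ± 0.14). Endothelial and pericyte markers (9 listed) gave 2 of 7 tested higher in cerebellum and 0 in cortex, with a median of -0.08. Choroid plexus markers gave 2 of 3 higher in cerebellum, led by Col9a3 (-1.28 ± 0.17); their 6 genes summed to 49.9 to 110.0 CPM in cortex and 85.7 to 249.7 in cerebellum.

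Markers of forebrain parts next to the cortex were also present in the cortex libraries. Penk, an opioid peptide precursor abundant in striatum, was at 110.3 to 506 CPM in cortex (median 184) and 82.2 to 143 in cerebellum, highest in cortex lean 1 (0.91 ± 0.21). Pdyn, the dynorphin precursor, was at 18.2 to 39.9 CPM and 0.0644 to 6.04 (3.49 ± 0.37). Fibcd1, found in hippocampal field CA1, was at 14.2 to 58.5 CPM in cortex and 0.232 to 24.3 in cerebellum (3.12 ± 0.48), with overlap through cerebellum DIO 1. Summed over 4 striatal markers the cortex libraries ranged from 251 to 865 CPM. Whether the cortex libraries hold striatal or hippocampal tissue, and any part of that in the levels of the cortex genes, was not tested.

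**Figure D4:**
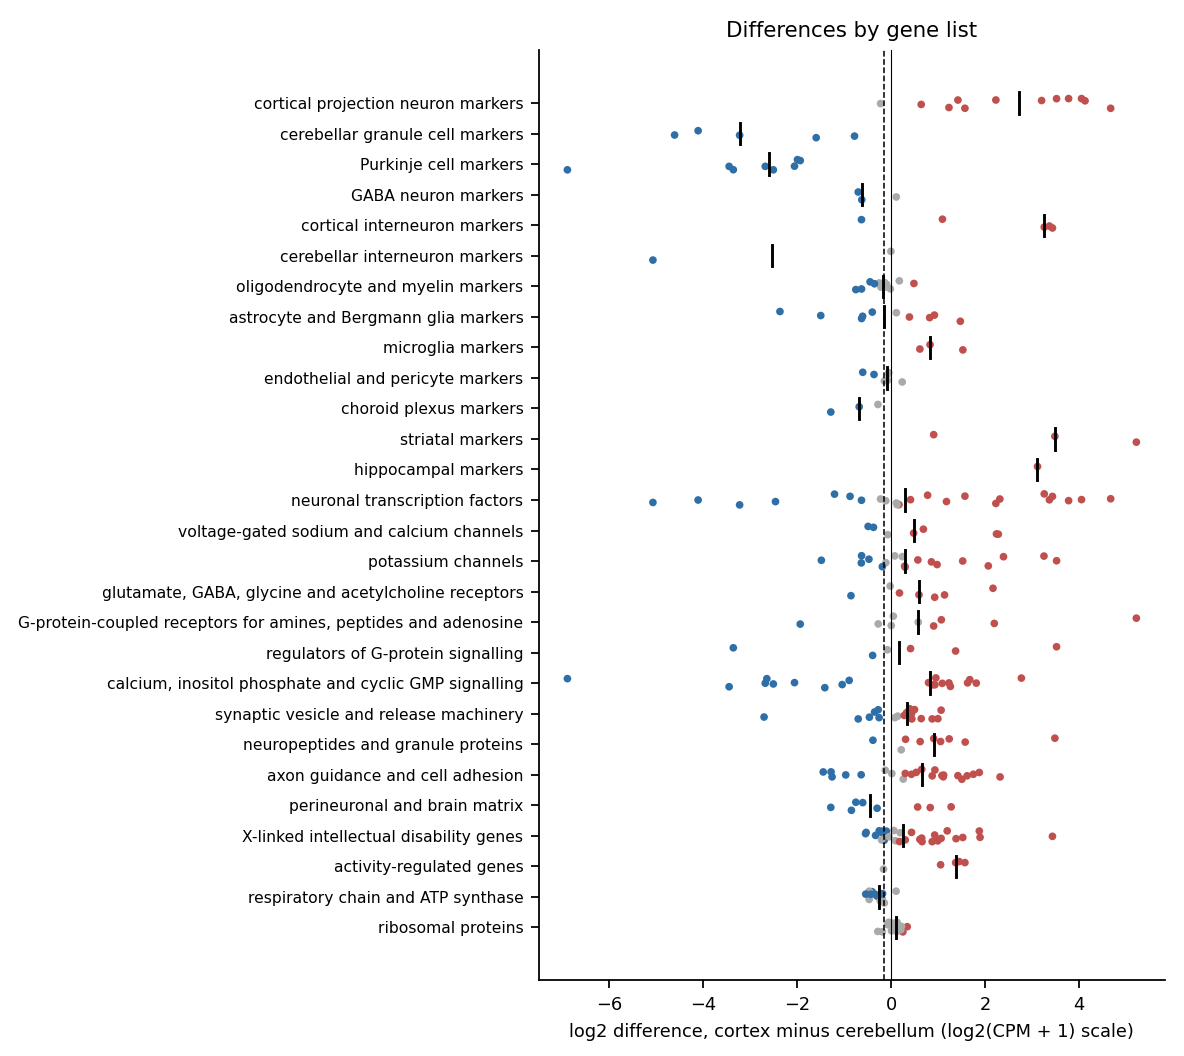
Log2 difference, cortex minus cerebellum, for each tested member of each gene list, with a black bar at the list's median. Red and blue points passed the limma test, higher in cortex or in cerebellum, grey points did not, and the dashed line marks the median of all 2397 genes at -0.14.

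Counts of the following lists stand beside 24.8% of all tested genes higher in cortex and 45.9% in cerebellum (595 and 1101 genes; 793 and 827 after rescaling), and no list was tested for enrichment. Potassium channel genes counted 10 higher in cortex, 5 in cerebellum and 3 not passing of 18 tested (20 listed; median 0.29). Kcng1, a silent subunit that modifies other potassium channels, was at 15.0 to 53.2 CPM in cortex (median 36.4) and 0.232 to 14.3 in cerebellum (median 0.638), a difference of 3.52 ± 0.46. Kcnt2, a sodium-activated channel, was higher in cortex by 3.26 ± 0.35. The paralogue Kcnt1 went the other way: 142 to 246 CPM in cortex (median 167) and 350.0 to 561 in cerebellum (median 518), a difference of -1.48 ± 0.11. Kcnj9 and Kcnc4 did not pass, at 0.08 ± 0.08 and -0.11 ± 0.08; after rescaling Kcnj9 was higher in cortex (0.21).

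Sodium and calcium channel genes gave 4 of 7 tested higher in cortex and 2 in cerebellum (12 symbols listed, of which Scn2a1 is an older name of Scn2a). Scn3a, a sodium channel prominent before birth, was at 44.7 to 59.5 CPM in cortex (median 48.3) and 2.30 to 42.6 in cerebellum (median 8.46), a difference of 2.28 ± 0.35. Fgf13, which binds sodium channels, differed by 2.24 ± 0.22. Scn1a, the channel of inhibitory neurons and of Dravet syndrome, and Cacnb4, a calcium channel subunit whose loss gives ataxic mice, were higher in cerebellum, by -0.37 ± 0.09 and -0.49 ± 0.13 (cortex minus cerebellum). Scn2a did not pass (-0.07 ± 0.09) with all libraries and was higher in cerebellum without the 4 (-0.26, adjusted p = 0.0011).

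Transmitter receptors of the listed families gave 5 of 7 tested higher in cortex and 1 in cerebellum (12 listed). Gabra3, a GABA receptor subunit, was at 132 to 163 CPM in cortex (median 144) and 14.1 to 97.6 in cerebellum (median 26.2), a difference of 2.17 ± 0.28. The glutamate receptor subunits Gria3 and Gria2 differed by 0.93 ± 0.06 and 0.59 ± 0.07, without overlap. The 2 subunits that pair in the main brain nicotinic receptor parted: Chrna4 was higher in cortex (1.14 ± 0.28, with overlap) and Chrnb2 in cerebellum (-0.85 ± 0.06, without). Of 9 tested receptors for amines, peptides and adenosine (18 listed), 4 were higher in cortex, among them Adra1d, an alpha-1 adrenergic receptor (2.20 ± 0.18). Gpr63, of Purkinje cells, was the 1 higher in cerebellum (-1.93 ± 0.16), and Adora1, the adenosine A1 receptor, did not pass (0.05 ± 0.08).

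Calcium, inositol phosphate and cyclic GMP signalling was split between the regions. All 20 tested members passed, 11 higher in cortex and 9 in cerebellum. The list has 22 symbols, of which Gucy1a3 and Gucy1b3 are older names of tested members. In 18 of them the regions did not overlap, 9 with cortex above and 9 with cerebellum above. Of all tested genes 11.6% and 17.9% were without overlap in these directions. Rasgrp1, an activator of Ras that responds to diacylglycerol, was at 512 to 634 CPM in cortex (median 541) and 53.6 to 187 in cerebellum (median 64.1), a difference of 2.78 ± 0.19. Some paralogues were found on opposite sides. Others were not: Necab1 and Necab3 were both higher in cortex, with medians of 117 and 52.0 CPM against 32.5 and 27.3 in cerebellum. Plcb1, a phospholipase C, was higher in cortex (1.63 ± 0.09), and its paralogue Plcb4, which serves the Purkinje cell, in cerebellum (-2.06 ± 0.13). Itpka, an inositol trisphosphate kinase of dendritic spines, was higher in cortex (1.23 ± 0.15) and Itpkb in cerebellum (-1.41 ± 0.09). The calcium pump Atp2b4 was higher in cortex (1.81 ± 0.18) and Atp2b3 in cerebellum (-1.04 ± 0.10). Itpkb, Plcb1, Itpka, Atp2b3 and Necab3 are named here after their values were seen.

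Release machinery differed by less. Of 19 tested genes (22 listed) 11 were higher in cortex, 6 in cerebellum and 2 did not pass. Syt2, the fast calcium sensor of hindbrain synapses, was at 50.9 to 122 CPM in cortex (median 75.8) and 424 to 575 in cerebellum (median 482), a difference of -2.70 ± 0.12 (adjusted p = 1.14e-13). Syn1, the vesicle tether synapsin, was at 568 to 898 CPM in cortex and 241 to 460.5 in cerebellum (1.07 ± 0.11), and Snph, which anchors mitochondria in axons, was at 381 to 472 and 170.0 to 269.9. Dnm1, the dynamin of vesicle recycling, did not pass (0.08 ± 0.05), but did after rescaling (0.21). Neuropeptide and granule genes gave 7 of 9 tested higher in cortex and 1, Chgb, in cerebellum (-0.39 ± 0.12), which after rescaling no longer passed (-0.26). Pcsk2, a processing protease, differed by 1.24 ± 0.09 and Bdnf, a growth factor of neurons, by 1.05 ± 0.10. Cbln4, a synapse organiser, was higher in cortex (1.58 ± 0.43), with overlap through the 4 libraries with Tbr1 (14.5 to 27.8 CPM, against at most 4.39 in the other 6).

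Adhesion and guidance genes gave 15 of 23 tested higher in cortex, 5 in cerebellum and 3 not passing (28 listed; median 0.65). Epha4, a guidance receptor, was at 154 to 242 CPM in cortex (median 192) and 23.2 to 70.5 in cerebellum (median 31.5), a difference of 2.32 ± 0.20. Cntn2, an adhesion protein of granule cell axons and of myelinated fibres, was at 147 to 199 CPM and 401 to 566, a difference of -1.44 ± 0.07. Sema6c, a semaphorin, was higher in cerebellum too (-1.28 ± 0.08). All 8 matrix genes passed, 3 higher in cortex and 5 in cerebellum. The sulphatases Sulf2 and Sulf1, which trim heparan sulphate, stood on opposite sides (1.28 ± 0.16 and -0.84 ± 0.12), and Tnr, a tenascin of perineuronal nets, was higher in cortex (0.83 ± 0.07).

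All 30 X-linked genes of intellectual disability were tested: 16 were higher in cortex, 8 in cerebellum and 6 did not pass, and after rescaling the numbers were 17 and 3. Dcx, a microtubule protein of young neurons, was at 32.5 to 45.5 CPM in cortex and 5.47 to 20.5 in cerebellum (1.89 ± 0.19). Slc6a8, the creatine transporter, was at 92.6 to 113 CPM and 144 to 159 (-0.53 ± 0.04, adjusted p = 8.77e-11), without overlap, and Kdm5c, a histone demethylase, differed by -0.54 ± 0.07. Of the activity-regulated genes 4 of 5 tested were higher in cortex, among them Nr4a2 (1.57 ± 0.21) and Ier5 (1.45 ± 0.15). Btg2 did not pass (-0.16 ± 0.17). This list has 10 symbols, of which Cyr61 is an older name of another listed gene. Ptgs2, below the filter, was at 14.6 to 22.0 CPM in cortex and 0.232 to 3.82 in cerebellum.

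Genes of the respiratory chain and ATP synthase gave 8 of 14 tested higher in cerebellum, a share near the 45.9% of all tested genes, and 0 in cortex. Their median was -0.26, beside -0.14 for all genes. The largest difference was in Sdhc, a subunit of succinate dehydrogenase (-0.54 ± 0.11), and in every member the regions overlapped. This count moved both ways with the fit. After rescaling 3 were higher in cerebellum and 1 in cortex, and without the 4 libraries with Tbr1 4 and 0. With library class as a term the numbers were 10 and 0. Ribosomal protein genes gave 2 of 16 higher in cortex (24.8% of all genes), Rpl12 (0.34 ± 0.14) and Rpl35 (0.25 ± 0.09). This number was 6 after rescaling, 7 without the 4 libraries and 11 with the class term, with 0 higher in cerebellum each time. The index that sets the class holds members of both lists. Ndufc1 and Rpl39, both in the index of library class, did not pass (-0.47 ± 0.32 and -0.05 ± 0.25).

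Set among 2 further brain regions of the series, midbrain with brainstem and hypothalamus (10 libraries each, 5 a diet), several cerebellar genes were low in both. Neurod1 had means of 12.2 ± 3.16 CPM in cortex (SD, n = 10), 264 ± 142 in cerebellum, 11.3 ± 15.5 in midbrain and 6.68 ± 5.48 in hypothalamus. In 1 limma fit of the 40 libraries with diet as a block, cerebellum exceeded midbrain by 4.69 ± 0.36 and hypothalamus by 5.06 ± 0.36 in log2 (adjusted p = 3.6e-14 and 2.7e-15). Ptpn22, with 60.4 CPM in cerebellum, had 3.28 in midbrain and 1.76 in hypothalamus, and Neb 52.3, 3.75 and 2.35. Tfap2b was intermediate in midbrain, with 12.7 CPM, and cerebellum exceeded it by 2.07 ± 0.33. Syt2 was higher in midbrain than in cerebellum, with 747 against 486 CPM (cerebellum minus midbrain -0.57 ± 0.17, adjusted p = 0.0024).

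The cortical genes had more varied orders. Tbr1 had a mean of 122 CPM in cortex, 11.6 in hypothalamus, 8.04 in cerebellum and 2.45 in midbrain. The differences of cerebellum from hypothalamus and midbrain were not past the threshold (-0.76 ± 0.55 and 0.86 ± 0.55, limma adjusted p = 0.21 and 0.16). The cerebellum mean of Tbr1 rested on the 4 libraries set apart by it, at 10.9 to 29.3 CPM. The remaining cerebellum libraries held 0.623 to 1.61 CPM, below the midbrain mean. Rgs4, with 445 CPM in cortex and 319 in hypothalamus, did not pass between these regions (0.51 ± 0.26, adjusted p = 0.080). Lamp5 was at 192 CPM in cortex, 246 in midbrain, 32.8 in hypothalamus and 23.4 in cerebellum, with -0.36 ± 0.48 between cortex and midbrain. In cerebellum the 4 libraries with Tbr1 held 37.2 to 91.5 CPM of Lamp5, and the rest 0.348 to 7.08. These contrasts share libraries with the main one and are given side by side only.

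**Figure D5:**
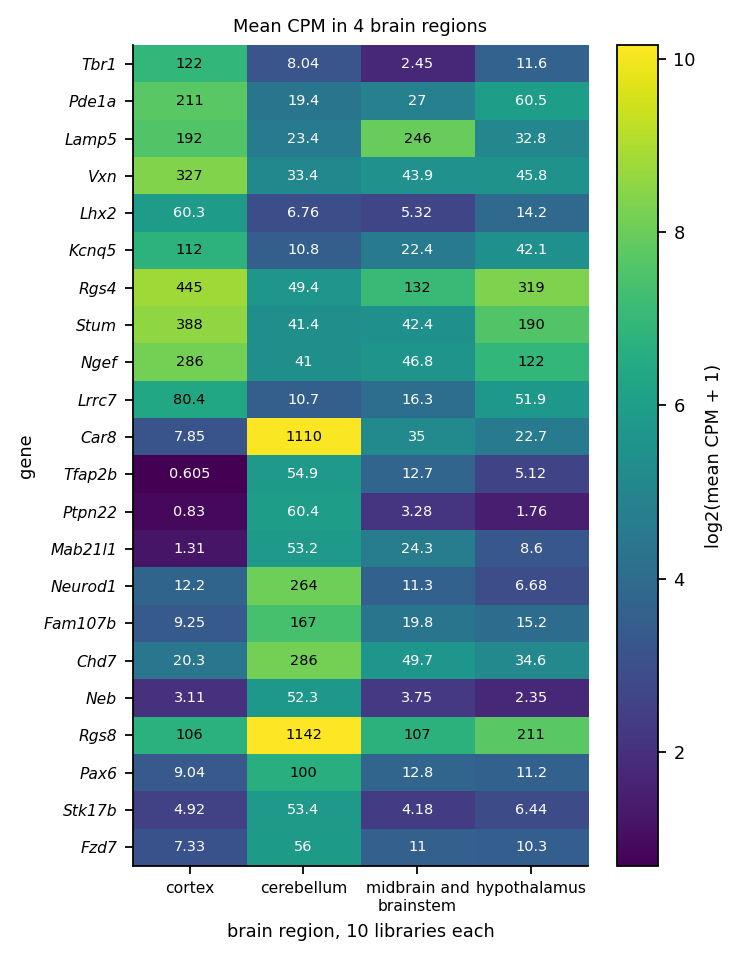
Mean CPM (printed in each cell) and log2(mean CPM + 1) (colour) of the same 22 genes in 4 brain regions, 10 libraries each. The lower 12 genes are brightest in the cerebellum alone, while several of the upper 10, such as Rgs4, are also high in hypothalamus.

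Diet did not detectably alter the regional difference. Of 2397 genes 0 (0% called) passed for an interaction of region and diet in limma, with 77 at an unadjusted p under 0.05; edgeR gave 0 and 73, and DESeq2 0 and 80. The smallest p was that of the gene model Gm38020, whose cortex minus cerebellum difference was 0.96 ± 0.21 more positive in DIO (adjusted p = 0.508). Fitted alone, the lean libraries gave 536 genes higher in cortex and 987 in cerebellum, and the DIO libraries 456 and 750. Identifiers of the 5 cortex DIO libraries come from other runs of names than the rest; without them 484 and 977 genes passed.

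Gene length differed between the sets. Genes higher in cortex with a log2 difference of at least 1 spanned a median of 69.3 kb on the genome (GENCODE M21 annotation, GRCm38, matched by identifier), those higher in cerebellum 42.9 kb and the other 2093 tested genes 30.1 kb. Median exonic lengths were closer, at 6.01, 5.46 and 5.24 kb. On chromosome X 3.45% of 348 tested genes were higher in cortex by at least 1, beside 7.01% of all tested, and 4.02% higher in cerebellum, beside 5.67%. In tissues outside the brain, the highest tissue mean of the cortex genes had a median of 24.3 CPM, that of the cerebellum genes 50.2 and that of the others 66.8. These are descriptions of chosen sets and were not tested.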

How the data were processed

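RNA was extracted with RNeasy, made into TruSeq stranded mRNA libraries and sequenced on a HiSeq as paired 100 nt reads, per the labels' protocols. STAR, HTSeq, FastQC and DESeq2 appear in the submitters' processing notes; their versions, their settings and the build were not stated there or in the labels. The authors deposited CPM for 13154 genes; 1 incomplete gene and 1 column that matched no sample were not used. Whole reads were recovered for 100% of values (within 0.001 read). Identifiers were matched to GENCODE M21 (13139 found).

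Regions were compared by limma 3.58.1 in R 4.3.3 on log2(CPM + 1), with diet as a block, in genes that averaged 10 CPM or more, with the spread moderated along a mean-variance trend, at a Benjamini-Hochberg adjusted p of 0.05. The pseudocount understates differences of low genes. edgeR 4.0.16 and DESeq2 1.42.0 were run on the recovered reads. In a test on simulated reads of the 2397 genes, the share found by limma was 91.0% for changes of 1.5 times, 94.0% for 2 and 100% for 4. Of the calls 5.47% were false. There a small part of the genes was changed, in random directions and gene by gene. It held no library classes, outlying libraries or shift of all genes, so these shares need not hold for the real comparison. Chi-square per degree of freedom over 40 replicate pairs was at least 3.78, so no library was counted as a duplicate.

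The comparison, gene lists and markers were chosen with earlier results of these data known. Named genes were the 12 largest differences per direction with at least 50 CPM in the higher region and no overlap, up to 6 tested members per list, the 6 smallest interaction p and the 5 highest means per region; some that meet it are not reported here. Itpkb, Plcb1, Itpka, Atp2b3, Necab3 and the genes below the filter (Barhl1, Nhlh1, Nhlh2, Ptf1a, Ptgs2, Hoxd3, Hoxd4) fall outside this rule and were chosen after their values were seen.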

Additional observations from a re-analysis of the deposited data

Results flagged for a closer look

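Each named gene's highest and lowest library were compared with the other 9 of its region. Of 288 groups (144 genes in 2 regions) 23 held a library whose gap to its neighbour was a large part of the range (Dixon's test); chance flags about 1 group in 20, and here it was 7.99%.

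In cortex DIO 1 the levels of 7 genes stood above the other 9 cortex libraries: Kcna2 at 451 CPM (others up to 355), Kcnj9 at 242 (199), Kcnt2 at 44.1 (30.2), Glrb at 243 (200.3), Rgs7 at 106 (94.2), Pcsk2 at 509 (443) and Olfm3 at 40.7 (31.7). Kcna2, Kcnj9 and Kcnt2 are potassium channel genes. In cerebellum DIO 1, one of the 4 libraries with Tbr1, 6 genes stood above the others: Gad2 at 292 CPM (others up to 198), Scg2 at 412 (264), Scn3a at 42.6 (22.9), Chrna4 at 58.6 (31.9), Ntng1 at 49.4 (35.5) and Fibcd1 at 24.3 (12.9). Cerebellum DIO 3, another of the 4, was high in Lamp5 at 91.5 CPM (others up to 43.8) and in Igfbp2, a choroid plexus marker, at 101 (56.3).

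Cerebellum DIO 4 was high in Gad1 at 692 CPM (592) and Gpr37l1 at 612 (478), and cerebellum lean 1 in Ogt at 517 (449) and Gm38020 at 47.7 (34.6). The other flags were 1 gene a library: Penk at 506 CPM in cortex lean 1 (others up to 310), Car14, another choroid plexus marker, at 21.9 in cortex DIO 5 (14.7), Erbb4 at 53.5 in cortex lean 3 (others at least 72.9) and Sox2 at 22.6 in cerebellum DIO 2 (others at least 23.8).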

How the results depend on the processing

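The 4 counts of genes by region kept within 1.5 times of their values under the alternatives run, except as follows. With no filter on low values 7777 genes were tested, and 1184 were higher in cortex and 1723 in cerebellum, 294 and 231 of them by at least 1. With a mean of at least 1 CPM (3447 genes) 907 were higher in cortex, and 288 and 226 genes passed with a log2 difference of at least 1. Without the 4 cerebellum libraries with Tbr1 and rescaled, 255 genes were higher in cortex by at least 1. The interaction count was 0 except within the lower library class (3 genes). Fewer or more genes and libraries enter these fits by construction; no other cause was tested.

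Leaving out each library in turn gave 571 to 616 genes higher in cortex, 1061 to 1120 in cerebellum, 163 to 187 and 131 to 145 with a log2 difference of at least 1, and 0 to 0 interactions. Over 144 named genes and 39 alternatives, 122 of 5609 values no longer passed, 96 newly passed and 5386 were counted as unchanged. Any change of sign in a value that passed in neither fit is among the 5386 and was not counted apart. In 5 values the sign changed with a pass in the main fit, the alternative or both. Those were Diexf (0.037 in DIO libraries alone, not passing) and 2 genes of the index itself, Ubap2l (from 0.029 to -0.086 with the index as a covariate, limma adjusted p = 0.017) and Rpl39 (0.18 with the index as a covariate, 0.18 with the class term and 0.21 in the lower class). The class term, the fits within a class and those without the 4 libraries, with their limits of index and Tbr1, were chosen after seeing the data. No paired analysis was possible because the labels carry no replicate numbers.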
